A study of Mus musculus with 10 samples.

Results

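Cell cycle genes were followed in whole skin of imiquimod-treated mice with and without quinpirole. The members were 46 genes given as a list, out of 17016 gene symbols in the deposited table. Of these, 14 belong to the S-phase machinery, and the other 32 are called mitotic here. The mitotic set includes the proliferation marker gene Mki67 and Ccna2, for cyclin A2 of S phase and G2. All 46 were present and all 46 passed the filter on low values. The list was drawn up with earlier results of these data known.

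The mice were female BALB/c, 10 to 11 weeks old, and whole skin was sequenced. All carried skin inflammation resembling psoriasis, induced by a 5% imiquimod cream spread daily on the shaved back for 5 days. Imiquimod activates TLR7, a receptor of innate immunity. Quinpirole, which activates the dopamine receptor DRD2, was given to 1 group as 5 intraperitoneal injections (5 libraries), and the other group had vehicle (5 libraries), by a route and number of doses that are not stated. Untreated skin was not analysed here, and both groups are inflamed skin. Samples are numbered within a group, and whether each is a separate mouse is not stated, so the p-values describe the spread among these libraries, which may be technical.

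Reads assigned to genes ran from 6763367 to 8361877 per library, and 1 read was worth 0.119 to 0.146 normalised CPM, the share of a library's reads on a common scale with library sizes adjusted by edgeR's TMM method. Whole skin mixes epidermis, hair follicles, dermis, muscle and blood cells. The keratinocyte genes Krt5 and Krt14, the dermal collagen gene Col1a1 and the leukocyte gene Ptprc were all present, with means of 3039, 7755, 702 and 115 CPM in quinpirole and 3103, 9269, 821 and 117 CPM in vehicle libraries. The libraries differed widely in hair shaft RNA. The summed level of 16 hair shaft genes was 1394, 6.12, 212, 8.14 and 64.5 CPM in quinpirole replicates 1 to 5, against 632, 1119, 1311, 136 and 5.45 CPM in vehicle replicates 1 to 5. Quinpirole replicates 2 and 4 and vehicle replicate 5 thus held almost no hair shaft RNA. The summed level of 13 skeletal muscle genes ran from 1242 to 5842 CPM in quinpirole libraries and from 607 to 2203 CPM in vehicle libraries. With quinpirole 13 of 13 were higher (median log2 fold change 1.19), 10 of them at an unadjusted limma p under 0.05 and 2 without overlap. Of all genes tested 6.92% were higher at that threshold and 2.2% did not overlap in either direction. Over all 14548 genes tested, 3 passed at a limma adjusted p of 0.05 (0.0206%), and none of them was a cell cycle member.

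A dividing cell copies its DNA in S phase and separates the copies in mitosis, and different sets of genes are switched on for each step. Genes for S phase are switched on late in G1 by E2F transcription factors after cyclin-dependent kinases have inactivated the RB family. Genes for mitosis are switched on in G2 by the MuvB complex with B-MYB and FOXM1, which act at a promoter element called the cell cycle genes homology region (CHR), often beside CCAAT boxes bound by NF-Y. In skin most dividing cells are basal keratinocytes and, in a growing hair follicle, the cells of the hair matrix. Thickened, fast-dividing epidermis is a defining feature of psoriasis and of the imiquimod model.

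The promoters of the 2 sets are shown because they are switched on through different elements. RefSeq promoters (GRCm38.p6) were matched for 39 members by symbol, and the 250 bases upstream of each start were searched on both strands. Counts are of genes with a promoter, and a gene with more than 1 promoter counts if any of them holds the word. A CHR (TTTGAA) stood in 9 of 27 mitotic members (33.3%), in 1 of 12 S-phase members (8.33%) and in 18.3% of 27025 genes with a promoter in the table. A CCAAT box (CCAAT) stood in 22 of 27 mitotic members (81.5%), in 8 of 12 S-phase members (66.7%) and in 37.5% of all genes. An E2F word, which was TTGGCGC or else TTCCCGC or else TTCGCGC or else TTGCCGC, stood in 4 of 27 mitotic members (14.8%), in 5 of 12 S-phase members (41.7%) and in 9.01% of all genes. Both a CHR and a CCAAT box stood in 8 of 27 mitotic members (29.6%), in 1 of 12 S-phase members (8.33%) and in 6.45% of all genes. These words can overlap each other, as where TTGGCGC runs into the reverse of TTCGCGC, and a CCAAT box in reverse can share bases with an E2F word. A match of letters is a description and not a binding site.

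The 170 bases upstream of the start are shown for 4 mitotic members and then for 3 S-phase members, to let the elements be seen. Each is printed 5′ to 3′ on the strand of the gene with the matched letters in capitals. The CHR of Cdc20, the mitotic member with the smallest p, begins 18 bases upstream of the start, between CCAAT boxes at 53 and 8 bases. The last 9 bases of that stretch, with the nearer CCAAT box, lie inside the gene as GENCODE places it. Kif11 and Top2a have a CHR at 19 and 23 bases, and Bub1b shows a reversed CCAAT box and no exact CHR word. Distances are from the RefSeq start, and GENCODE places the starts of Kif11, Mcm5 and Mcm6 further downstream. Mcm5 and Mcm6 carry paired and overlapping E2F words, and Rrm1 an E2F word between CCAAT boxes.
Cdc20, chr4:118437344-118437513, minus strand: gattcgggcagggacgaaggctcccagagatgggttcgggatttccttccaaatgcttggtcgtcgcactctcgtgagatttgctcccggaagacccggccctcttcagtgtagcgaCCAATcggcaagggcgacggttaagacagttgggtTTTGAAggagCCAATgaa
Kif11, chr19:37376212-37376381, plus strand: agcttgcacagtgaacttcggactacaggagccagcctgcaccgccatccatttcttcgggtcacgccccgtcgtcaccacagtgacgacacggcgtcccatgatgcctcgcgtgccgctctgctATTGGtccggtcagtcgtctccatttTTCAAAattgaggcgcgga
Top2a, chr11:99024190-99024359, minus strand: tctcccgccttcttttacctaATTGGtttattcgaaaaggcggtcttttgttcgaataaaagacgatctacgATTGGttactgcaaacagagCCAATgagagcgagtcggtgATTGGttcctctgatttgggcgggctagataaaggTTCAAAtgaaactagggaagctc
Bub1b, chr2:118598041-118598210, plus strand: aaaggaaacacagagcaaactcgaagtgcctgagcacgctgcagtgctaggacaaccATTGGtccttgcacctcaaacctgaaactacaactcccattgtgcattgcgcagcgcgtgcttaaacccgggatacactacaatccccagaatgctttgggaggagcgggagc
Mcm5, chr8:75109339-75109508, plus strand: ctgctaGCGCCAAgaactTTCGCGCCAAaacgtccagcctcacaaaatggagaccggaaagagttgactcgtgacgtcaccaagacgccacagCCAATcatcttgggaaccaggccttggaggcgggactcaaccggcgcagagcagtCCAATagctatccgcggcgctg
Mcm6, chr1:128359706-128359875, minus strand: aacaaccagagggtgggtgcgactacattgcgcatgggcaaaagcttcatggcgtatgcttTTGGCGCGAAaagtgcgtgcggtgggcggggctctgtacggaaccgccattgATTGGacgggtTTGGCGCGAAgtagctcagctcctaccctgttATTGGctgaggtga
Rrm1, chr7:102441525-102441694, plus strand: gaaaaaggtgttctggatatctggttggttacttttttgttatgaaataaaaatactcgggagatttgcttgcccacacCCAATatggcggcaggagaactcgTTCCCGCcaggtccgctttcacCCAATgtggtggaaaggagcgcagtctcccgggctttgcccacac

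The mitotic members all had lower values with quinpirole, none past the threshold, while the S-phase members were split. All 32 mitotic members had a lower fitted value in quinpirole skin, with a median log2 fold change of -0.32. Of 14 S-phase members 7 were lower and 7 higher, with a median of -0.0056. Over all genes tested 50.4% had a lower value and the median was -0.0021. In limma 0 of 46 members passed at an adjusted p of 0.05, where 0.0206% of all genes passed and 0.00687% passed as lower. At an unadjusted limma p under 0.05 stood 9 members, all mitotic and all lower, where 4.47% of all genes tested were lower and 6.92% higher at that threshold. In edgeR's quasi-likelihood test 0 members passed after adjustment (0.0344% of all genes did), with 8 lower at an unadjusted p under 0.05, as 4.8% of all genes were. In DESeq2 1 of 46 passed (Cdc20), where 1.51% of all genes passed, and 8 were lower at an unadjusted p under 0.05, as 4.74% of all genes were. Each fold change compares log2 values of CPM plus 1, which understates the change of low genes. In bulk skin, fewer dividing cells and less RNA per dividing cell cannot be told apart.

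These counts lean on single libraries, in which many members moved together, so the members are not separate observations. Quinpirole replicate 2 was the lowest of all 10 libraries for 28 of 32 mitotic and 5 of 14 S-phase members. Without it the mitotic median was -0.15, with 29 of 32 lower, 5 of them at an unadjusted limma p under 0.05 (3.57% of all genes in that fit), and Mki67, Ccna2 and Nusap1 on the higher side. Vehicle replicate 5 was the lowest vehicle library for 29 of 32 mitotic and 11 of 14 S-phase members, and without it 13 mitotic and 2 S-phase members had an unadjusted limma p under 0.05, all lower, where 6.41% of all genes were lower at that threshold. Vehicle replicate 4 was the highest of the 10 for 18 mitotic members, and without it the mitotic median was -0.29 with 32 of 32 lower and 5 of them at an unadjusted limma p under 0.05 (3.36% of all genes). Without quinpirole replicate 3, the highest quinpirole library for 25 mitotic members, 16 mitotic members were lower at an unadjusted limma p under 0.05 (4.23% of all genes).

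**Figure D1:**
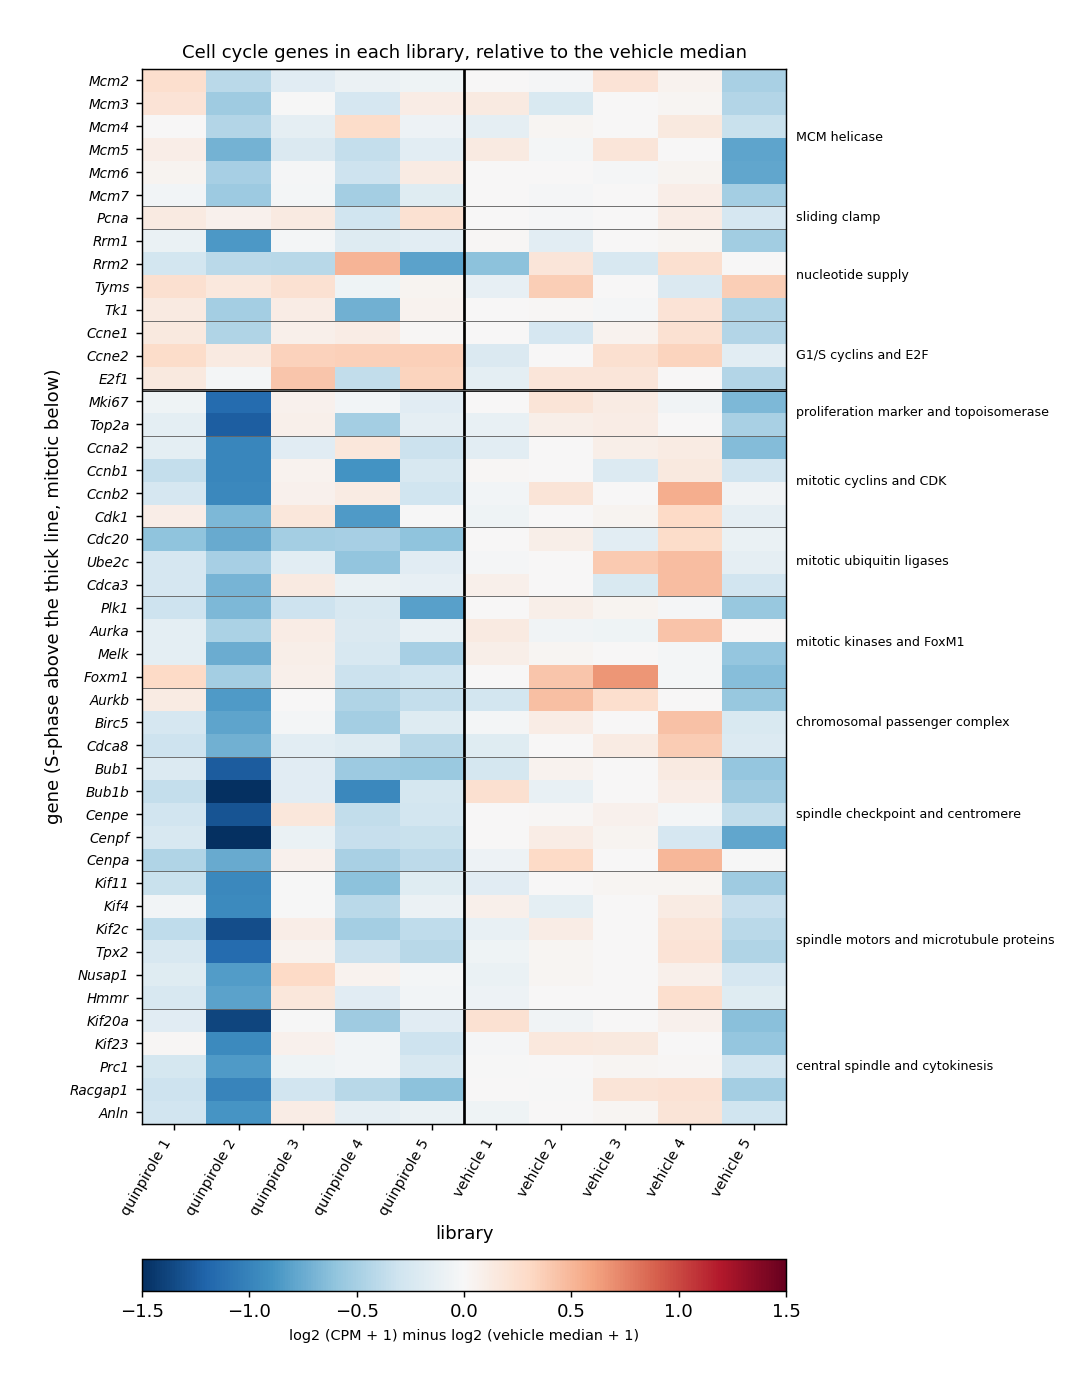
Heat map of 46 cell cycle genes (rows, by role, S-phase above the thick line) in 10 libraries (columns, quinpirole on the left and vehicle on the right); colour is the log2 of CPM plus 1 minus that of the vehicle median, and saturates at the ends of the scale. Quinpirole replicate 2 is the lowest library for 28 of 32 mitotic genes, vehicle replicate 5 is the lowest vehicle library for 29 of them, and Cdc20 is low in all 5 quinpirole libraries.

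Entry into S phase depends on cyclin E, which activates CDK2, and on E2F1, an activating E2F factor. The 3 members of this kind and Pcna had the 4 highest fold changes of the list, and none passed. Ccne2, which encodes cyclin E2, measured 20.9, 18.9, 21.9, 22.3 and 22.1 CPM in quinpirole replicates 1 to 5, against 14.6, 17.1, 20.3, 21.8 and 15.2 CPM in vehicle replicates 1 to 5. All 5 quinpirole values lay above the vehicle median, but the groups overlapped, with a log2 fold change of 0.26 (SE 0.12, limma adjusted p = 0.463). Ccne2 shares 609 exon bases with Ints8 on the opposite strand (17.4% of its exons), and Ints8 itself had a log2 fold change of 0.18 (adjusted p = 0.591 in limma). E2f1 measured 9.28, 8.16, 11.4, 6.23 and 10.7 CPM in quinpirole libraries, against 7.42, 9.54, 9.57, 8.32 and 5.87 CPM in vehicle libraries. The lowest value was in vehicle replicate 5 and the highest in quinpirole replicate 3, and the groups overlapped over most of their range, with a log2 fold change of 0.15 (SE 0.18, limma adjusted p = 0.805). Ccne1, which encodes cyclin E1, averaged 12.04 ± 1.98 CPM in quinpirole and 11.5 ± 2.21 CPM in vehicle libraries (SD, n = 5 each), with a log2 fold change of 0.063 and a 95% interval of -0.28 to 0.41.

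The MCM genes encode the 6 subunits of the replicative helicase, which is loaded at origins before S phase. Their log2 fold changes lay on both sides of 0, from -0.18 to 0.019. Mcm7 measured 104, 73.3, 105, 75.03 and 94.8 CPM in quinpirole libraries, against 107, 106, 108, 115 and 74.8 CPM in vehicle libraries (log2 fold change -0.18, SE 0.14, limma adjusted p = 0.685). Mcm5 measured 76.1, 43.3, 61.2, 55.6 and 63.5 CPM in quinpirole libraries, against 78.2, 69.5, 80.7, 71.2 and 40.7 CPM in vehicle libraries (log2 fold change -0.16, SE 0.19, limma adjusted p = 0.792). Vehicle replicate 5 was for both genes far below the other vehicle libraries and inside or under the quinpirole range. Mcm2, Mcm3, Mcm4 and Mcm6 had log2 fold changes of -0.043, 0.0018, -0.013 and 0.019, and the widest of their limma 95% intervals was -0.36 to 0.39, for Mcm6. Mcm2, Mcm3, Mcm4, Mcm5, Mcm6 and Mcm7 each changed sign in at least 1 of 22 alternatives, so no direction is given for this helicase.

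Pcna, the sliding clamp that holds DNA polymerases on their template, measured 164, 156, 163, 121 and 174 CPM in quinpirole libraries, against 149, 147, 148, 161 and 124 CPM in vehicle libraries. Apart from quinpirole replicate 4, the quinpirole values lay above the vehicle median, and the groups overlapped (log2 fold change 0.085, SE 0.11, limma adjusted p = 0.813). Among the genes that supply nucleotides, Rrm1 encodes the large subunit of ribonucleotide reductase and Rrm2 its small subunit, which is made in S phase. Rrm1 measured 133, 77.9, 139, 125 and 127 CPM in quinpirole libraries, against 144, 128, 142, 145 and 98.4 CPM in vehicle libraries (log2 fold change -0.14, SE 0.16, limma adjusted p = 0.788). Rrm2 measured 51.5, 46.9, 46.5, 89.7 and 35.4 CPM in quinpirole libraries, against 40.4, 71.1, 52.9, 73.97 and 62.5 CPM in vehicle libraries (log2 fold change -0.19, SE 0.23, limma adjusted p = 0.800). Quinpirole replicate 4 was the highest library of all for Rrm2 and quinpirole replicate 5 the lowest, the widest relative spread of any member in that group. Thymidylate synthase (Tyms) had a log2 fold change of 0.044 (95% interval -0.24 to 0.32) and thymidine kinase 1 (Tk1) -0.14 (-0.54 to 0.27). A pseudogene, Tyms-ps, is in the table at 0.419 CPM in quinpirole and 0.544 CPM in vehicle libraries, and reads could be divided between it and Tyms.

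Mki67, which encodes the proliferation marker Ki-67, measured 483, 228, 530.5, 494 and 451 CPM in quinpirole libraries, against 507, 577, 553, 490.5 and 318 CPM in vehicle libraries. Both groups hold 1 low library, quinpirole replicate 2 and vehicle replicate 5, and of the other 4 quinpirole values 2 lay inside the range of the other 4 vehicle values and 2 below it. The log2 fold change was -0.19 (95% interval -0.70 to 0.32), and it was 0.03 without quinpirole replicate 2. Top2a, the DNA topoisomerase that untangles chromosomes, measured 293, 137, 344, 229 and 297 CPM in quinpirole libraries, against 303, 346, 352, 326 and 232 CPM in vehicle libraries (log2 fold change -0.31, SE 0.22, limma adjusted p = 0.634). Quinpirole replicates 2 and 4 lay below every vehicle value, and the other 3 inside the vehicle range. Per kilobase of exon, Pcna stood highest of all members at 62.8 CPM over the 10 libraries, followed by Mki67 at 46.04, Tyms at 35.2 and Top2a at 31.7, while E2f1 stood lowest at 2.74.

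Mitosis is started by CDK1 bound to cyclin B. Ccnb1, which encodes cyclin B1, measured 59.7, 38.3, 79.5, 40.6 and 64.5 CPM in quinpirole libraries, against 77.3, 76.5, 66.3, 85.1 and 62.5 CPM in vehicle libraries. Of the quinpirole values 3 lay below every vehicle value and quinpirole replicate 3 lay among the highest vehicle values (log2 fold change -0.42, SE 0.19, limma adjusted p = 0.419). Ccnb2, for cyclin B2, measured 29.9, 17.8, 37.3, 38.8 and 28.8 CPM in quinpirole libraries, against 34.6, 40.9, 35.6, 52.4 and 34.3 CPM in vehicle libraries (log2 fold change -0.39, SE 0.20, limma adjusted p = 0.478). Cdk1 measured 55.4, 32.04, 58.2, 28.2 and 51.7 CPM in quinpirole libraries, against 49.5, 51.7, 53.3, 63.7 and 47.1 CPM in vehicle libraries (log2 fold change -0.28, SE 0.19, limma adjusted p = 0.624). Here quinpirole replicates 2 and 4 were low and the other 3 quinpirole values lay inside the vehicle range. Ccna2, for cyclin A2 of S phase and G2, had a log2 fold change of -0.17 and was highest of all in quinpirole replicate 4.

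Cyclin B is destroyed at anaphase by the anaphase-promoting complex (APC/C), which needs the activator CDC20 and the ubiquitin-conjugating enzyme UBE2C. These genes were the 2 members whose groups did not overlap, where 0.859% of all genes tested were lower with no overlap and 2.2% did not overlap in either direction. Cdc20 measured 28.1, 25.2, 29.99, 30.1 and 28.03 CPM in quinpirole libraries, against 43.1, 46, 38.4, 52.3 and 40.1 CPM in vehicle libraries. The quinpirole values lay within 5 CPM of each other, and quinpirole replicate 2, so low for other mitotic genes, stood only slightly below the rest. It averaged 28.3 ± 1.999 CPM in quinpirole and 43.99 ± 5.48 CPM in vehicle libraries (SD, n = 5 each), resting on 1083 reads in quinpirole and 1642 reads in vehicle libraries. The log2 fold change was -0.61 (95% interval -0.83 to -0.40), with an unadjusted limma p of 5.03e-05 and an adjusted p of 0.0721. It stayed between -0.66 and -0.52 over 23 alternatives. Cdc20 passed in DESeq2 (adjusted p = 6.83e-05), which called 1.51% of all genes. It also passed in limma with the mean of the S-phase members as a covariate (adjusted p = 0.0345), a fit chosen after the values were seen that called 0.199% of all genes. With the mean of the other 31 mitotic members as a covariate its log2 fold change was -0.52 (adjusted p = 0.581 in limma). On mm10, Cdc20 lies at chr4:118432901-118437352, minus strand, and 53 of its exon bases (2.84%) overlap Elovl1 on the other strand, whose log2 fold change was 0.010 (adjusted p = 0.989 in limma).

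Ube2c measured 15.5, 12.96, 16.6, 12.1 and 16.5 CPM in quinpirole libraries, against 18.4, 18.7, 24.9, 26.2 and 16.9 CPM in vehicle libraries. The highest quinpirole value and the lowest vehicle value, 16.6 and 16.9 CPM, were nearly equal, so the separation is thin (log2 fold change -0.47, SE 0.15, limma adjusted p = 0.256). Ube2c lies at chr2:164769898-164778822, plus strand, and shares 592 exon bases (22.8%) with the muscle troponin gene Tnnc2 on the opposite strand. Tnnc2 averaged 64.7 ± 40.6 CPM in quinpirole and 29.5 ± 14.6 CPM in vehicle libraries (log2 fold change 1.03, limma adjusted p = 0.347), the opposite direction from Ube2c. The libraries were made with a directional kit, and whether reads were counted by strand is not given in the sources used here. With the mean of the muscle genes in the fit, the log2 fold change of Ube2c was -0.33 (adjusted p = 0.720 in limma). The part of Tnnc2 reads in the level of Ube2c was not tested. Cdca3, an adaptor in the destruction of the mitotic inhibitor WEE1, had a log2 fold change of -0.21 with overlapping groups.

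**Figure D2:**
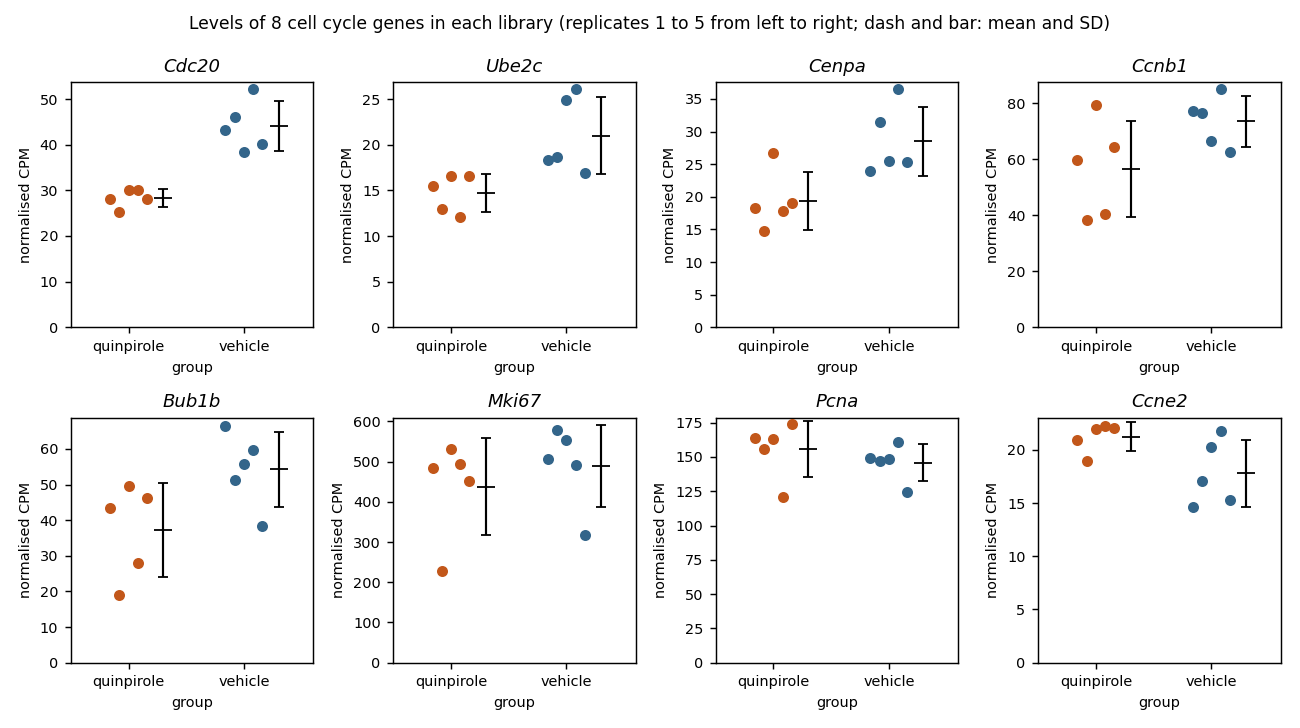
Normalised CPM of 8 members in each library, quinpirole in orange on the left and vehicle in blue on the right, replicates 1 to 5 from left to right, with mean and SD beside the points. Cdc20 and Ube2c do not overlap between the groups, Ccnb1, Cenpa and Bub1b overlap in part, Mki67 and Pcna overlap widely, and all 5 quinpirole values of Ccne2 lie above its vehicle median.

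Among the mitotic kinases, PLK1 drives centrosome maturation and AURKA spindle assembly. Plk1 measured 14.2, 10.8, 14.2, 15.01 and 9.69 CPM in quinpirole libraries, against 17.9, 19.1, 18.3, 17.6 and 11.7 CPM in vehicle libraries (log2 fold change -0.38, SE 0.16, limma adjusted p = 0.397). Vehicle replicate 5 lay inside the quinpirole range and the other 4 vehicle values lay above every quinpirole value. Aurka measured 19.7, 15.6, 23.7, 18.8 and 20.3 CPM in quinpirole libraries, against 24.1, 21.2, 20.97, 29.9 and 21.95 CPM in vehicle libraries. Of the quinpirole values 4 lay under every vehicle value, and quinpirole replicate 3 lay above 3 of them (log2 fold change -0.26, SE 0.13, limma adjusted p = 0.489). The kinase gene Melk and the transcription factor gene Foxm1, which itself drives mitotic genes, had log2 fold changes of -0.21 and -0.23. The log2 fold change of Foxm1 was 0.011 with the hair shaft covariate and 0.067 with the muscle covariate. Both covariates run at least in part with the groups, so these values cannot part tissue from treatment.

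The chromosomal passenger complex corrects faulty attachments of chromosomes to the spindle. It holds the kinase AURKB, survivin (Birc5) and borealin (Cdca8). Cdca8 measured 24.98, 18.6, 27.9, 27.3 and 23.2 CPM in quinpirole libraries, against 27.5, 31.3, 34.1, 41.1 and 27.1 CPM in vehicle libraries (log2 fold change -0.38, SE 0.14, limma adjusted p = 0.324). Birc5 measured 28.2, 19.1, 32.98, 23.4 and 29.3 CPM in quinpirole libraries, against 32.9, 36.3, 33.7, 45.8 and 28.7 CPM in vehicle libraries (log2 fold change -0.41, SE 0.16, limma adjusted p = 0.349). In both genes all 5 quinpirole values were below the vehicle median and 3 were below every vehicle value. Aurkb, at 7.6 to 15.8 CPM in quinpirole and 9.4 to 20.1 CPM in vehicle libraries, had a log2 fold change of -0.27.

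The spindle checkpoint holds back anaphase until all chromosomes are attached, and BUBR1 (Bub1b) and BUB1 act in it at the centromere, which CENPA marks as a histone H3 variant. Cenpa measured 18.3, 14.7, 26.7, 17.8 and 19.1 CPM in quinpirole libraries, against 24.01, 31.5, 25.4, 36.5 and 25.3 CPM in vehicle libraries. It had the second smallest limma p among members, with 4 quinpirole values below every vehicle value and quinpirole replicate 3 inside the vehicle range (log2 fold change -0.55, SE 0.16, limma adjusted p = 0.237). Bub1b measured 43.4, 18.9, 49.5, 28.1 and 46.2 CPM in quinpirole libraries, against 66.4, 51.4, 55.8, 59.7 and 38.3 CPM in vehicle libraries. Quinpirole replicates 2 and 4 were low, all 5 quinpirole values were below the vehicle median, and vehicle replicate 5 was the lowest vehicle library (log2 fold change -0.59, SE 0.24, limma adjusted p = 0.385). Its log2 fold change was -0.38 without quinpirole replicate 2. Bub1 had a log2 fold change of -0.41, and the large kinetochore proteins Cenpe and Cenpf had -0.34 and -0.33, which were -0.12 and -0.079 without quinpirole replicate 2.

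Motor and microtubule proteins build the spindle. Kif2c, a kinesin that takes microtubules apart at centromeres, measured 24.9, 12.4, 35.03, 22.6 and 24.9 CPM in quinpirole libraries, against 30.05, 35.3, 32.6, 37.1 and 24.3 CPM in vehicle libraries (log2 fold change -0.45, SE 0.22, limma adjusted p = 0.468). Tpx2, which activates AURKA on the spindle, measured 55.3, 28.8, 67.7, 51.9 and 48.6 CPM in quinpirole libraries, against 62.6, 66.6, 65.3, 75.6 and 47.4 CPM in vehicle libraries (log2 fold change -0.36, SE 0.20, limma adjusted p = 0.517). In both, quinpirole replicate 2 was the lowest library, quinpirole replicate 3 lay inside the vehicle range and vehicle replicate 4 was the highest. The spindle kinesins Kif11 and Kif4 had log2 fold changes of -0.29 and -0.24, and the microtubule proteins Hmmr and Nusap1 -0.22 and -0.093, the last being the smallest difference of any mitotic member.

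The central spindle and the contractile ring divide the cell. Racgap1, a subunit of the centralspindlin complex, measured 28.9, 17.6, 29.3, 26.7 and 23.1 CPM in quinpirole libraries, against 35.96, 35.9, 41.1, 42 and 24.9 CPM in vehicle libraries. Vehicle replicate 5 lay inside the quinpirole range, and the other 4 vehicle values lay above every quinpirole value (log2 fold change -0.50, SE 0.17, limma adjusted p = 0.286). Kif23, the other subunit of the same complex, had a log2 fold change of -0.19, less than that of Racgap1, and the difference between them was not tested. Prc1, which bundles microtubules of the central spindle, measured 53.5, 35.2, 61.3, 62.6 and 54.4 CPM in quinpirole libraries, against 63.9, 64.4, 65.7, 65.4 and 52.4 CPM in vehicle libraries (log2 fold change -0.24, SE 0.14, limma adjusted p = 0.557). Its vehicle replicates 1 to 4 lay within 2 CPM of each other and above every quinpirole value. The kinesin gene Kif20a and the ring protein gene Anln had log2 fold changes of -0.38 and -0.23. Of the 46 members, 11 share exon bases with a gene of the table on the opposite strand, Kif20a most of all (29.3% of its exons, with Cdc23).

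**Figure D3:**
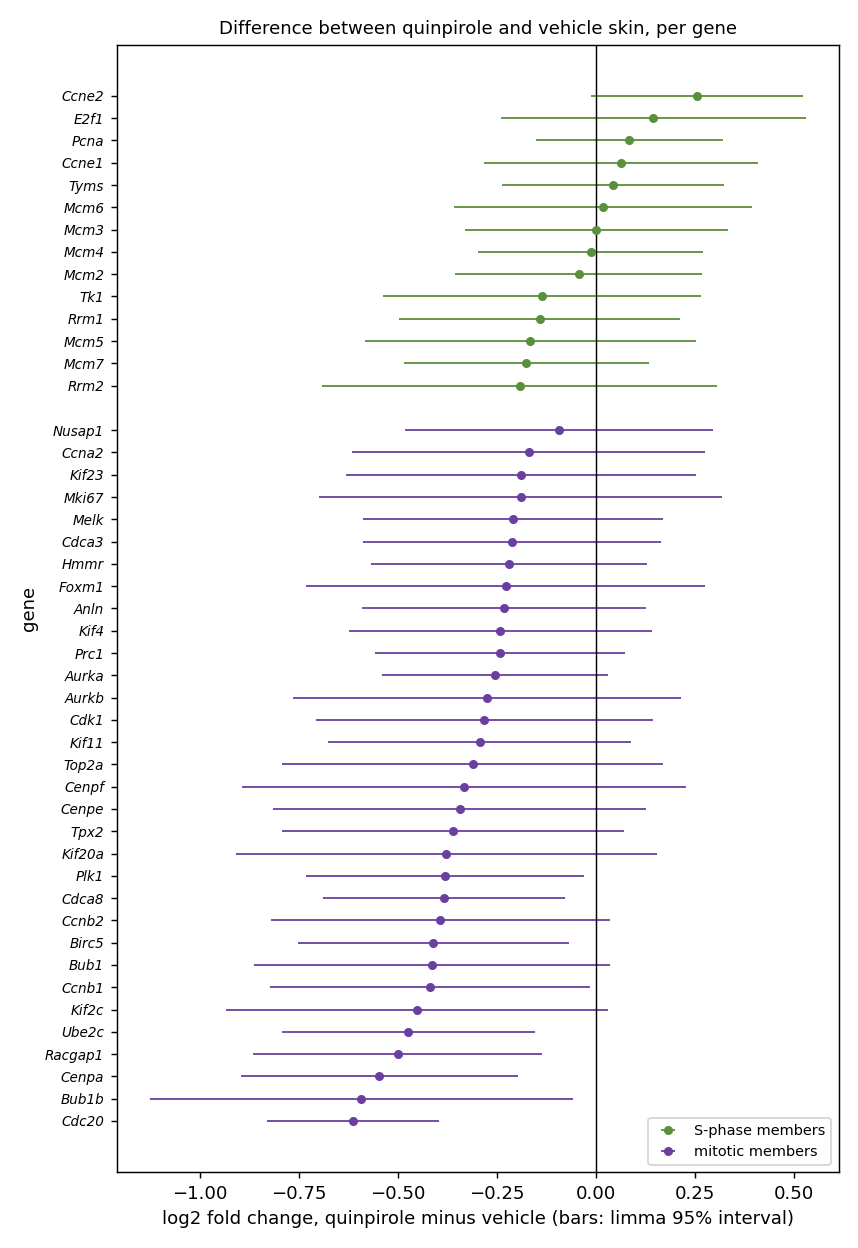
Log2 fold change of each member, quinpirole minus vehicle, with limma 95% intervals (5 libraries per group), S-phase members in green above and mitotic members in purple below, each sorted by value. All 32 mitotic points lie left of 0 and 9 of their intervals exclude it, while the 14 S-phase points lie on both sides of 0 and each interval includes it.

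Within single libraries the mitotic members stood lower beside the S-phase members with quinpirole. The mean log2 level of the 32 mitotic members was 5.41, 4.68, 5.61, 5.27 and 5.33 in quinpirole replicates 1 to 5, against 5.59, 5.68, 5.67, 5.78 and 5.23 in vehicle replicates 1 to 5. That of the 14 S-phase members was 5.94, 5.49, 5.87, 5.71 and 5.83 in quinpirole libraries, against 5.78, 5.85, 5.89, 5.94 and 5.47 in vehicle libraries. Both means overlapped between the groups. Their difference within a library, mitotic minus S-phase, was -0.53, -0.81, -0.26, -0.44 and -0.50 in quinpirole libraries, against -0.19, -0.16, -0.22, -0.15 and -0.24 in vehicle libraries. This difference did not overlap, although the nearest values of the groups, -0.26 in quinpirole replicate 3 and -0.24 in vehicle replicate 5, are close. It was chosen after the values were seen, and is given without a test. With the S-phase mean as a covariate, 32 of 32 mitotic members had a lower value, with a median of -0.28 and 16 of them at an unadjusted limma p under 0.05 (5.46% of all genes). That covariate was chosen after this difference was seen, so its count restates the difference and is no separate support.

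Quinpirole replicates 2, 4 and 5 and vehicle replicate 5 had the lowest hair shaft sums and the lowest mitotic means of all 10 libraries. Quinpirole replicate 2 and vehicle replicate 5, the lowest libraries of each group for both means of the cell cycle members, had hair shaft sums of 6.12 and 5.45 CPM. Quinpirole replicate 4 had a hair shaft sum of 8.14 CPM and the next lowest mitotic mean of its group. Among the other libraries the mitotic mean did not follow the hair shaft sum. Vehicle replicate 4 had the highest mitotic mean of all, 5.78, with a hair shaft sum of 136 CPM. Quinpirole replicate 3 had the highest mean of its group, 5.61, with 212 CPM, above quinpirole replicate 1 with 1394 CPM. The summed level of 15 hair matrix and inner root sheath genes was 5919.9, 132, 1762, 168 and 655 CPM in quinpirole libraries, against 2643, 6233, 6252, 1028 and 121 CPM in vehicle libraries. Of these 15 genes 14 had a lower value with quinpirole (median log2 fold change -1.29) and none had an unadjusted limma p under 0.05. The part of hair follicle RNA in the mitotic values was not tested beyond this and the covariate that follows. With the hair shaft mean as a covariate the mitotic median was -0.18, with 31 of 32 lower and 6 at an unadjusted limma p under 0.05 (4.9% of all genes), and Cdc20 had a log2 fold change of -0.61 (adjusted p = 0.0686). With the muscle mean as a covariate 31 of 32 mitotic members were lower (median -0.28), 1 at an unadjusted limma p under 0.05 (4.52% of all genes). All 13 muscle genes were higher with quinpirole, so this covariate runs with the groups and its count cannot part muscle from treatment. All 16 hair shaft genes were lower with quinpirole (median log2 fold change -1.60), with 0 at an unadjusted limma p under 0.05. The hair shaft covariate thus also runs in part with the groups, and its fit cannot part hair from treatment. The 9 basal keratinocyte genes summed to 9869, 10631, 16429.9, 12822 and 13034 CPM in quinpirole libraries, against 14349.9, 10782, 12845, 18188 and 13530.5 CPM in vehicle libraries, with a median log2 fold change of -0.0068. Of these 9 genes 5 were lower and 4 higher. Among them Col17a1, a collagen of the basement membrane zone, was higher without overlap (log2 fold change 0.52, SE 0.16, limma adjusted p = 0.239). Of all genes tested 2.2% did not overlap in either direction. Itga3 was lower, with all 5 quinpirole values below the vehicle median (log2 fold change -0.33, SE 0.12, limma adjusted p = 0.316). Of 8 suprabasal keratinocyte genes 6 were higher (median 0.18). Krt10, a keratin of differentiating keratinocytes, averaged 2271 ± 511 CPM in quinpirole and 1445 ± 376 CPM in vehicle libraries, with 4 quinpirole values above every vehicle value (log2 fold change 0.66, SE 0.22, limma adjusted p = 0.281). Of 7 fibroblast genes 4 were higher (median 0.22), while Col1a1 stood at -0.31. The 2 matrix proteoglycan genes Lum (0.88) and Dcn (0.65) had an unadjusted limma p under 0.05, where 6.92% of all genes were higher. With the basal keratinocyte mean as a covariate 32 of 32 mitotic members were lower (median -0.32), 6 at an unadjusted limma p under 0.05. In that fit 480 of 14548 genes were lower at that threshold. The part of these lists in the mitotic values was not tested, apart from the covariates named. Leukocyte genes summed to 575 to 743 CPM in quinpirole and 416 to 742 CPM in vehicle libraries.

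**Figure D4:**
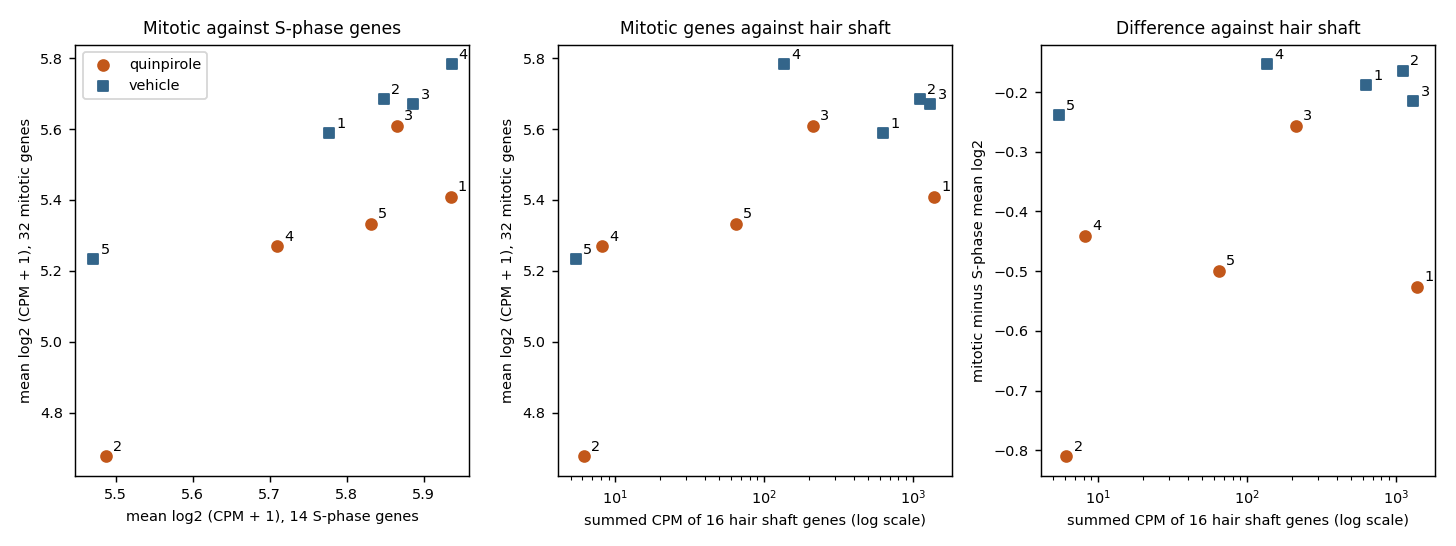
Each point is 1 library (orange circles quinpirole, blue squares vehicle, numbered by replicate); the left plot sets the mean log2 level of 32 mitotic genes against that of 14 S-phase genes, the middle plot sets the mitotic mean against the summed CPM of 16 hair shaft genes (log scale), and the right plot sets mitotic minus S-phase means against the same sum. Quinpirole points lie below vehicle points of like S-phase level, and the right plot separates the groups by a gap of -0.26 against -0.24 at its narrowest.

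Other genes of the cell cycle were read from lists of the pathway, with p-values over all genes tested. No gene of these lists passed in limma. The licensing and firing factors of replication origins (17 tested, 7 lower, median 0.033) and the DNA polymerases and fork proteins (18 tested, 11 lower, median -0.032) had 0 genes at an unadjusted limma p under 0.05. Their smallest p belonged to the origin kinase subunit gene Dbf4 with a log2 fold change of -0.32, Orc5 with 0.20, Pole2 with 0.24 and the flap endonuclease gene Fen1 with -0.28. The replication-dependent histones, which are made in S phase, had 43 of 60 tested genes lower and a median of -0.10, with -0.25 for Hist1h4i and -0.35 for Hist1h4j. They summed to 5838 to 8306 CPM in quinpirole and 5737 to 9068 CPM in vehicle libraries, and reads can be divided between their near-identical copies.

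Over all genes tested, 4.47% were lower and 6.92% higher at an unadjusted limma p under 0.05. All 12 condensin and cohesion regulators were lower (median -0.18), with 1 at an unadjusted limma p under 0.05, Cdca5 (sororin, which protects cohesion), at -0.37, and separase (Espl1) at -0.41. Of 18 kinetochore and checkpoint genes 15 were lower (median -0.13), 1 of them at an unadjusted limma p under 0.05. Spc24, a subunit of the NDC80 complex, measured 16.3, 14.9, 17.04, 12.6 and 15.5 CPM in quinpirole libraries, against 17.6, 17.8, 19.4, 17.6 and 21.5 CPM in vehicle libraries, without overlap (log2 fold change -0.29, SE 0.11, limma adjusted p = 0.345). Of all genes tested 0.859% were lower with no overlap. The checkpoint kinase gene Ttk had a log2 fold change of -0.26. Of 16 APC/C genes 12 were lower (median -0.077), 2 of them at an unadjusted limma p under 0.05, and 1 was higher at that threshold. Ube2s, which extends the ubiquitin chains that UBE2C starts, averaged 44.5 ± 5.31 CPM in quinpirole and 57.1 ± 10.8 CPM in vehicle libraries (log2 fold change -0.34, SE 0.14, limma adjusted p = 0.370). The higher gene, with the smallest p of the list, was Anapc13, a small structural subunit, at 0.32 (limma adjusted p = 0.347).

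The regulators upstream showed no common direction. G1 cyclins, CDKs and the E2F and RB families had 12 of 19 genes lower (median -0.060), with -0.091 for cyclin D1 (Ccnd1), 0.13 for Ccnd3 and 0.27 for the transcription factor gene Myc. Of 6 genes of MuvB and B-MYB 1 was lower, Mybl2 at -0.29, which encodes B-MYB, while Lin9 stood at 0.27. Of 7 CDK inhibitor genes 6 were tested, 3 lower and 3 higher. Cdkn1a, which encodes the inhibitor p21, averaged 112 ± 12.4 CPM in quinpirole and 129.7 ± 16.7 CPM in vehicle libraries (log2 fold change -0.21, SE 0.11, limma adjusted p = 0.496), and Cdkn1c had a log2 fold change of 0.23.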

How the data were processed

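Per the labels' protocols, ribosomal RNA was depleted and MGIEasy directional libraries were made from total RNA of whole skin, 5 quinpirole and 5 vehicle samples. Tools listed without role or order in the submitters' processing notes are RSEM 1.3.0, Bowtie2, Trimmomatic 0.38 and edgeR, with the build mm10. Which annotation and gene filter were used is not given in the sources used here. The deposited table holds a normalised signal for each of 17016 symbols. Of its values 100% were whole multiples of the smallest in their column, within 1e-06 of a read, so reads were recovered, on which edgeR called 5 genes. Totals of 6763367 to 8361877 reads with edgeR's TMM factors gave back the deposited scale, which is therefore CPM on TMM library sizes.

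Values were transformed as log2 of CPM plus 1. Genes with at least 1 CPM in at least 5 libraries (14548) were tested with limma 3.58.1 in R 4.3.3, two-sided, using its trend of variance with level and no covariate, with Benjamini-Hochberg adjustment over all genes and a threshold of 0.05. Alternatives used edgeR 4.0.16 and DESeq2 1.42.0 on recovered reads, other pseudocounts, filters and scaling, covariates, the replicate block and leaving out each library. The members and lists were chosen with earlier results of these data known. S-phase and mitotic members were kept apart, with Tyms and Tk1 put in S phase and all members outside S phase called mitotic. Values per library are given for Mki67, Top2a, Pcna, Cdk1 and Ccnb1, the 2 members with the smallest limma p in each of 12 roles, and the 3 with the largest positive fold change; in other lists, the 2 genes with the smallest p, with Cdkn1a, Mybl2, Ccnd1 and Myc. Tnnc2, Ints8 and Elovl1 were named because they overlap members, and the skin genes Krt5, Krt14, Col1a1, Ptprc, Col17a1, Itga3, Krt10, Lum and Dcn after their values were seen. Knl1 was matched as Casc5. Positions are from GENCODE M21 (GRCm38), promoters from RefSeq. The limma steps were tested on simulated data. Libraries of a group were compared in pairs and none agreed within sampling noise (chi-square per gene 6.55 or more). The labels used gave no batch. Figures were drawn with matplotlib 3.10.9.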

Additional observations from a re-analysis of the deposited data

Results flagged for a closer look

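The levels of the 46 members were searched for a library standing apart from the other 4 of its group, by Dixon's ratio against a critical value of 0.71. Of 92 groups looked at, 12 held such a library. Each of the 12 was the lowest value of its group, and each lay in quinpirole replicate 2 or vehicle replicate 5. The critical value is set for about 1 in 20 separate groups, but many members moved together in these libraries. The same search was not run over all genes, so the count is not read as an excess over chance. In quinpirole replicate 2, Mki67 measured 228 CPM, against 451 to 530 CPM in the other 4 quinpirole libraries. Cenpf measured 37.9 CPM there (87.2 to 103 CPM in the others), Rrm1 77.9 CPM (125 to 139 CPM) and Ccne1 8.59 CPM (12.3 to 13.4 CPM).

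In vehicle replicate 5 the helicase genes Mcm5, Mcm6 and Mcm7 measured 40.7, 42.4 and 74.8 CPM. The other 4 vehicle libraries lay at 69.5 to 80.7 CPM for Mcm5, 72.1 to 75.6 CPM for Mcm6 and 106 to 115 CPM for Mcm7. Plk1 measured 11.7 CPM there (17.6 to 19.1 CPM in the others), Melk 16.1 CPM (24.2 to 26.3 CPM) and Cenpe 63.5 CPM (81.2 to 86.2 CPM). Kif23 measured 25.4 CPM (38.1 to 43.1 CPM) and Prc1 52.4 CPM (63.9 to 65.7 CPM). Both libraries had the lowest hair shaft sums of their groups, 6.12 CPM in quinpirole replicate 2 and 5.45 CPM in vehicle replicate 5. The part of the hair follicle in these low values was not tested.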

How the results depend on the processing

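The 3 genes called over the whole table became 5 with a pseudocount of 0.1, 6 with no filter, 5 with scaling to library totals, 15 with the hair shaft covariate, 29 with the S-phase covariate, 5 in edgeR and 219 in DESeq2. The count was 0 in limma with the muscle covariate (658 genes lower and 553 higher at an unadjusted p under 0.05) and ran from 0 to 10 when single libraries were left out, with 10 without vehicle replicate 5 (440 to 932 lower and 773 to 1283 higher). Members called numbered 0 except in DESeq2 and with the S-phase covariate, with 1 each, Cdc20. The count stayed 0 when each library was left out in turn. The median of the mitotic members lay between -0.42 and -0.15, that of the S-phase members between -0.11 and 0.088, turning sign in 7 of 22 alternatives, and members with a lower value numbered 33 to 42 of 46. Of the 46 members, 32 kept the sign of their difference in these 22 alternatives and 14 did not. These ranges leave out the covariate of the other mitotic members, which was meant for Cdc20 alone and takes out the level the members share: with it the mitotic median was 0.032 and 16 of 46 members were lower. That covariate and the S-phase covariate were chosen after seeing the data.

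With the replicate number as a block, 0 genes and 0 members were called in limma (591 genes lower and 985 higher at an unadjusted p under 0.05), and the medians did not move. Deviations of libraries sharing a number correlated at 0.22, -0.24, 0.19, 0.13 and 0.095 for numbers 1 to 5, and for each number the best match was another number, so the numbers were not taken as pairs. Depth limits members at low levels, as 1 read was worth 0.119 to 0.146 CPM and E2f1 rested on 350 and 304 reads in the quinpirole and vehicle groups.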
